A study of Homo sapiens with 6 samples.

Results

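The genes described here are those of the unfolded protein response and the integrated stress response, 37 genes chosen by name, of which 35 carried a probe set among the 17687 named genes measured. ATF5, a transcription factor of the stress response, and HSP90B1, the chaperone GRP94, have no expression values here. RNA came from the established human monocytic line THP-1, first grown from a leukaemia, which had been kept for 2 days in 100 ng/ml PMA, a phorbol ester that gives them macrophage features, and then transfected for 24 h with lipofectamine RNAiMAX and 1 synthetic miRNA mimic. The groups were a negative control mimic (mimic NC) and the mimics of miR-146a-5p, let-7e-5p, let-7d-3p, miR-151a-3p and miR-130a-3p, each a single culture on 1 Affymetrix Human Clariom S array. All 6 groups therefore share PMA and the transfection reagent, and no array of untreated or untransfected cells was analysed here. The treatment text names another mimic, let-7a-5p, for every sample, so the groups rest on the sample titles, and one label calls the cells lymphocyte-like.

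With 1 array per group no value has a replicate and nothing could be tested. Every difference below is a difference between 2 arrays, and the number of arrays limits the precision. Values are log2 signals, so a difference of 1 is a doubling, and levels were compared between arrays and not between genes. Background was taken as 5.39, the level that 95% of the values of 348 probe sets for olfactory receptors did not exceed. Array medians lay between 6.92 and 6.95, and 13562 to 13849 probe sets per array were above background. Of the 35 genes 34 were above it on all 6 arrays. The exception was CHAC1. All 14 measured myeloid markers were above background on every array, with a summed level of 18.82 to 18.85 log2. Of 12 T and NK cell markers 3 to 5 were above it on an array (from CD3E, CD3G, CD5, GNLY and IL7R). So were 4 of 8 B cell markers (CD79A, CD79B, PAX5 and FCRLA) and 3 of 11 epithelial and fibroblast markers (KRT8, KRT19 and COL1A2). Some were far above it, with 9.23 to 9.98 for GNLY, 10.33 to 10.85 for IL7R, 8.69 to 9.40 for KRT8 and 8.68 to 9.29 for COL1A2. The rest of these lists, MS4A1, CD3D and EPCAM among them, were not above it. The part of these markers in the results was not tested.

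When proteins misfold in the endoplasmic reticulum (ER), the membrane sensors IRE1 (the product of ERN1), PERK (of EIF2AK3) and ATF6 become active. IRE1 splices the mRNA of the transcription factor XBP1, ATF6 is cut to release a transcription factor, and both raise chaperones and genes of ER-associated degradation (ERAD). PERK and the other eIF2 kinases, which respond to amino acid shortage, double-stranded RNA or haem shortage, slow translation but let the mRNA of ATF4 be translated, and ATF4 then induces genes of amino acid supply, redox balance and cell death. Secretory macrophages rely on these branches when they make large amounts of cytokine. The splicing of XBP1 and the translation of ATF4 are not seen in a gene-level array signal.

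The mature sequences of the mimicked miRNAs are shown first because a miRNA pairs with its targets through its seed, bases 2 to 8, given in capitals. RefSeq (GRCh38.p14) supplied 3 of them, and miR-130a-3p and miR-151a-3p are named only.
let-7d-3p, chr9:94178895-94178916, plus strand: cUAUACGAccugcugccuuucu
let-7e-5p, chr19:51692793-51692814, plus strand: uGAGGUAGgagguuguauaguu
miR-146a-5p, chr5:160485372-160485393, plus strand: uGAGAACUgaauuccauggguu
Each of the 3 had a seed of its own. The mimics of let-7d-3p and let-7e-5p, from opposite arms of let-7 hairpins, did not share one.

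The clearest differences from mimic NC lay in a few chaperones. PDIA4, a protein disulphide isomerase of the ER, was 1.62-fold to 2.11-fold higher with every mimic. DNAJC3 and DNAJB9, co-chaperones of the main ER chaperone BiP, were 1.38-fold to 1.62-fold and 1.40-fold to 1.69-fold higher, respectively. VLDLR, a lipoprotein receptor induced through PERK and ATF4, was 1.39-fold to 2.39-fold higher. The ATF4 targets and the chaperones as lists lay only slightly above mimic NC, and which list was higher depended on the mimic.

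**Figure D1:**
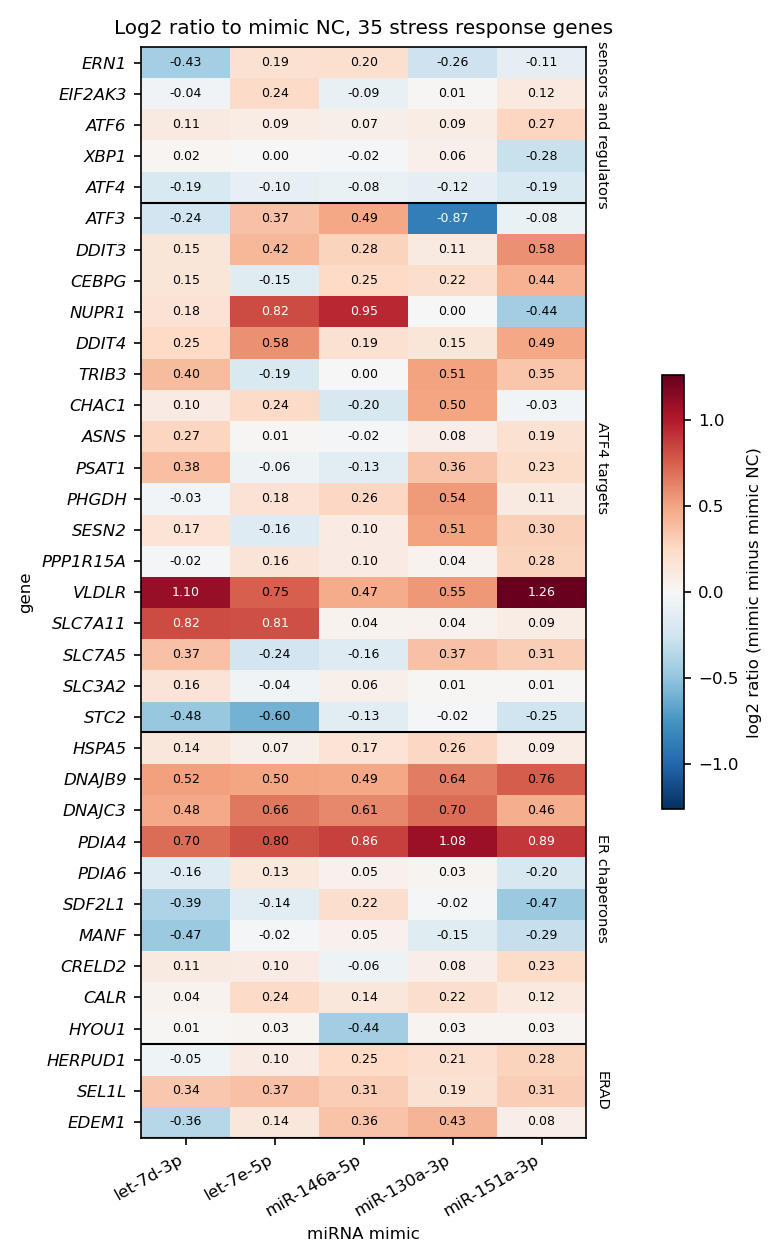
Log2 ratio of each of the 35 measured genes (rows, by role) with each mimic (columns) to mimic NC, 1 array per mimic. Red is higher and blue lower than mimic NC; PDIA4, DNAJC3, DNAJB9 and VLDLR are red in every column, and ATF4 is between -0.19 and -0.08.

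The sensors and their direct effectors differed little between arrays. Their median range over the 6 arrays was 0.33 log2 against 0.50 for all 12257 named genes above background. ATF4, the transcription factor of the integrated stress response, measured 12.67 with mimic NC, 12.59 with miR-146a-5p, 12.57 with let-7e-5p, 12.48 with let-7d-3p, 12.48 with miR-151a-3p and 12.55 with miR-130a-3p. It was thus highest with mimic NC, by 0.08 log2 over the nearest mimic, and lowest with let-7d-3p and miR-151a-3p. ATF6 went the other way, with 12.67 for mimic NC, 12.74 for miR-146a-5p, 12.76 for let-7e-5p, 12.78 for let-7d-3p, 12.94 for miR-151a-3p and 12.76 for miR-130a-3p.

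ERN1 measured 9.83 with mimic NC, 10.03 with miR-146a-5p, 10.02 with let-7e-5p, 9.40 with let-7d-3p, 9.72 with miR-151a-3p and 9.57 with miR-130a-3p. Its range of 0.63 log2 was the widest of these 5 genes, with the let-7d-3p array 1.35-fold below mimic NC. EIF2AK3 measured 8.11 with mimic NC, 8.02 with miR-146a-5p, 8.35 with let-7e-5p, 8.07 with let-7d-3p, 8.23 with miR-151a-3p and 8.12 with miR-130a-3p. XBP1 stood at 11.30 with mimic NC, 11.28 with miR-146a-5p, 11.30 with let-7e-5p, 11.32 with let-7d-3p, 11.02 with miR-151a-3p and 11.36 with miR-130a-3p. The miR-151a-3p array was the only one of the 6 that lay apart for XBP1, 1.21-fold below mimic NC.

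Among the ER chaperones, PDIA4 measured 11.55 with mimic NC, 12.41 with miR-146a-5p, 12.35 with let-7e-5p, 12.25 with let-7d-3p, 12.44 with miR-151a-3p and 12.63 with miR-130a-3p. DNAJC3, which also inhibits PERK, measured 12.15 with mimic NC, 12.76 with miR-146a-5p, 12.81 with let-7e-5p, 12.63 with let-7d-3p, 12.61 with miR-151a-3p and 12.85 with miR-130a-3p. DNAJB9, a known target of XBP1, measured 10.09 with mimic NC, 10.58 with miR-146a-5p, 10.59 with let-7e-5p, 10.61 with let-7d-3p, 10.85 with miR-151a-3p and 10.73 with miR-130a-3p. In all 3 genes the mimic NC array lay by itself, 0.70, 0.46 and 0.49 log2 below the lowest mimic, while the 5 mimics spanned 0.38, 0.24 and 0.27 log2.

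The chaperone genes HSPA5, CALR, CRELD2 and PDIA6 were closer to mimic NC. HSPA5, which encodes BiP, measured 15.57 with mimic NC, 15.74 with miR-146a-5p, 15.64 with let-7e-5p, 15.71 with let-7d-3p, 15.66 with miR-151a-3p and 15.83 with miR-130a-3p, so that the mimics were 0.07 to 0.26 log2 higher. CALR, the lectin chaperone calreticulin, was 16.66 with mimic NC and 16.70 to 16.90 with the mimics. CRELD2, an ER protein induced by stress, spanned 10.72 to 11.01, and PDIA6, another disulphide isomerase, 15.13 to 15.46. Neither was outside the range of the mimics with mimic NC.

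SDF2L1, a partner of BiP, and MANF, a secreted ER stress protein, were lowest with let-7d-3p and miR-151a-3p. SDF2L1 measured 8.81 with mimic NC, 9.03 with miR-146a-5p, 8.67 with let-7e-5p, 8.42 with let-7d-3p, 8.34 with miR-151a-3p and 8.79 with miR-130a-3p. MANF measured 10.27 with mimic NC, 10.32 with miR-146a-5p, 10.25 with let-7e-5p, 9.80 with let-7d-3p, 9.98 with miR-151a-3p and 10.12 with miR-130a-3p. HYOU1, a nucleotide exchange factor of BiP, measured 15.21 with mimic NC, 14.77 with miR-146a-5p, 15.24 with let-7e-5p, 15.22 with let-7d-3p, 15.24 with miR-151a-3p and 15.24 with miR-130a-3p. Only the miR-146a-5p array differed for HYOU1, 1.36-fold below mimic NC.

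Of the ERAD genes, SEL1L, the scaffold of the main ubiquitin ligase of ERAD, measured 12.95 with mimic NC, 13.26 with miR-146a-5p, 13.32 with let-7e-5p, 13.29 with let-7d-3p, 13.26 with miR-151a-3p and 13.14 with miR-130a-3p. EDEM1, which hands misfolded glycoproteins to ERAD, measured 11.53 with mimic NC, 11.89 with miR-146a-5p, 11.67 with let-7e-5p, 11.17 with let-7d-3p, 11.61 with miR-151a-3p and 11.96 with miR-130a-3p. SEL1L was lowest with mimic NC, whereas EDEM1 had its lowest level with let-7d-3p, 1.28-fold below mimic NC. HERPUD1, another ERAD component, spanned 13.01 to 13.34.

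**Figure D2:**
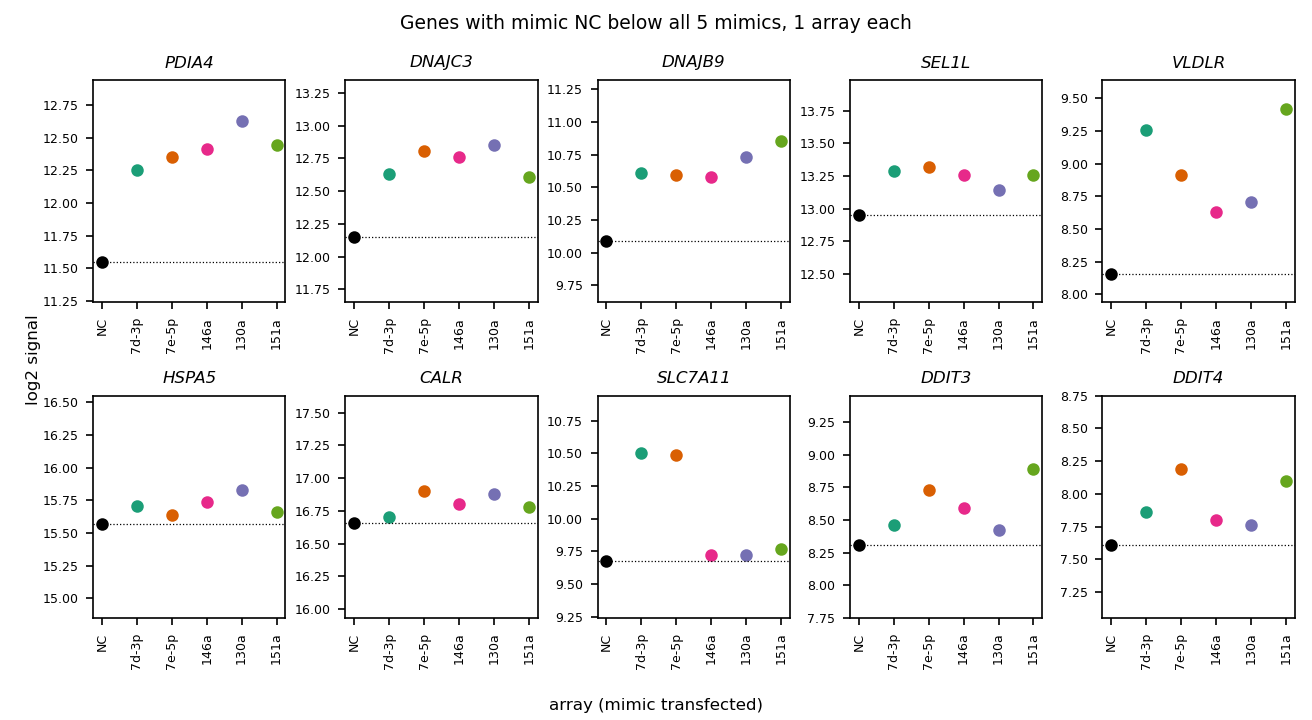
Log2 signal (y axis, 1.7 log2 units in each panel) of 10 of the 11 genes with mimic NC below all 5 mimics, on each of the 6 arrays (x axis; NC is mimic NC, the other labels are short for the mimics). The dotted line is the level with mimic NC; the gap to the nearest mimic is 0.70 for PDIA4 and 0.04 for SLC7A11.

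In all, 11 of the 35 genes (31.4%) were lower with mimic NC than with any of the 5 mimics, beside 13.1% of all named genes above background. They were ATF6, DDIT3, DDIT4, VLDLR, SLC7A11, HSPA5, DNAJB9, DNAJC3, PDIA4, CALR and SEL1L, which is 5 of 10 chaperones and 4 of 17 ATF4 targets. Only ATF4 and STC2, a secreted glycoprotein (5.71% of the genes), were higher with mimic NC than with any mimic, beside 11.8% of all named genes. With a gap of at least 0.3 log2, which was set with the values known, 4 genes had mimic NC below all mimics (11.4% against 1.30%), namely PDIA4, DNAJC3, DNAJB9 and VLDLR. Without the miR-146a-5p array 4 genes rather than 2 had mimic NC above all mimics. The level with mimic NC rests on 1 culture that enters all 5 comparisons, so a difference of that array and an effect common to the mimics cannot be told apart.

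The other arrays gave the following counts of lowest and highest levels. With let-7d-3p 6 of the 35 genes were lowest and 4 highest, beside 22.1% and 16.1% of all named genes. With let-7e-5p 6 were lowest and 5 highest (16.2% and 12.4% of all), and the same counts held for miR-146a-5p (14.0% and 15.1% of all). With miR-130a-3p only ATF3 was lowest, 2.86% of the genes beside 15.2% of all, and 9 were highest, 25.7% beside 17.6%. With miR-151a-3p 4 were lowest and 8 highest, beside 16.1% and 23.4%. The lowest levels with mimic NC and with miR-130a-3p were thus the shares that lay farthest from those of all genes, one above and one below.

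**Figure D3:**
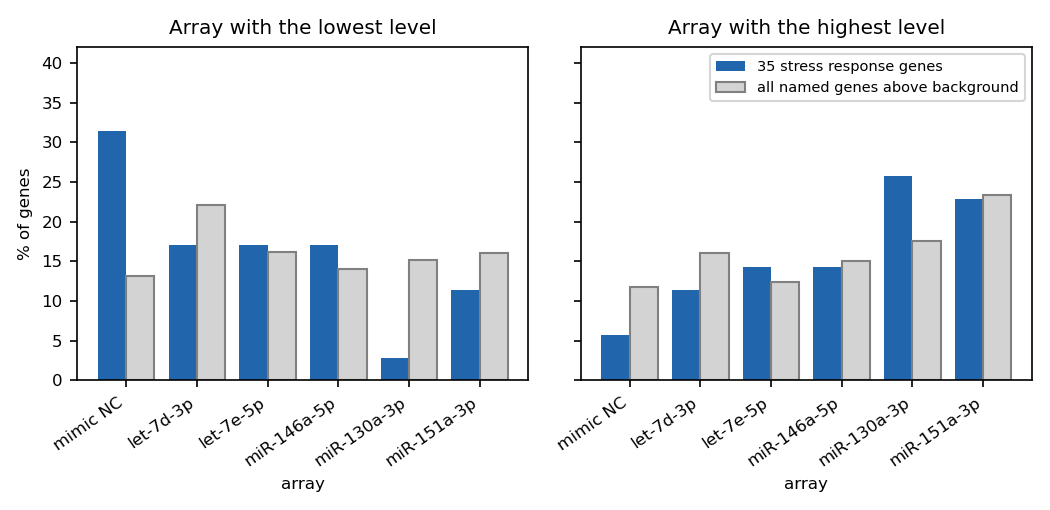
Share of genes (y axis, %) whose lowest (left) or highest (right) level lies on each array, for the 35 stress response genes (blue) and for all 12257 named genes above background (grey). Mimic NC holds the lowest level of 31.4% of the stress genes and of 13.1% of all genes.

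The ATF4 targets had a median range of 0.60 log2 over the arrays, against 0.50 for the chaperones and for all named genes. VLDLR measured 8.16 with mimic NC, 8.63 with miR-146a-5p, 8.91 with let-7e-5p, 9.26 with let-7d-3p, 9.42 with miR-151a-3p and 8.71 with miR-130a-3p. It was at least 1.5-fold above mimic NC with let-7d-3p, let-7e-5p and miR-151a-3p. SLC7A11, the cystine importer that feeds glutathione synthesis, measured 9.68 with mimic NC, 9.72 with miR-146a-5p, 10.49 with let-7e-5p, 10.50 with let-7d-3p, 9.77 with miR-151a-3p and 9.72 with miR-130a-3p. Its arrays fell into 2 levels, since only those of let-7d-3p and let-7e-5p lay 0.82 and 0.81 log2 above mimic NC. The part of the seeds in this was not tested.

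TRIB3 and some other ATF4 targets shared another order of the arrays. TRIB3, a pseudokinase that restrains ATF4, measured 7.79 with mimic NC, 7.79 with miR-146a-5p, 7.60 with let-7e-5p, 8.19 with let-7d-3p, 8.14 with miR-151a-3p and 8.30 with miR-130a-3p. PSAT1, of serine synthesis, measured 10.24 with mimic NC, 10.11 with miR-146a-5p, 10.18 with let-7e-5p, 10.62 with let-7d-3p, 10.47 with miR-151a-3p and 10.60 with miR-130a-3p. SLC7A5, the importer of leucine and other large amino acids, measured 11.25 with mimic NC, 11.09 with miR-146a-5p, 11.01 with let-7e-5p, 11.62 with let-7d-3p, 11.56 with miR-151a-3p and 11.62 with miR-130a-3p. In each of these genes let-7d-3p, miR-130a-3p and miR-151a-3p lay above the other 3 arrays.

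ASNS, the asparagine synthetase, followed the same order with 7.88 for mimic NC, 7.86 for miR-146a-5p, 7.89 for let-7e-5p, 8.15 for let-7d-3p, 8.07 for miR-151a-3p and 7.96 for miR-130a-3p. So did SESN2, a leucine sensor that restrains mTORC1, with 7.36, 7.46, 7.20, 7.53, 7.66 and 7.87 on the same arrays in that order. The order was noticed after the values were seen. It held in 6 of the 35 genes (17.1%), DNAJB9 being the other, beside 5.13% of all named genes above background. By list these were 5 of 17 ATF4 targets and 1 of 10 chaperones. No minimum gap was required, and the count comes from the same values in which the order was noticed. DNAJB9 met it narrowly, with 10.61 for let-7d-3p against 10.59 for let-7e-5p. ASNS and SESN2 met it by little more, with 7.96 against 7.89 and 7.53 against 7.46. Among these 5 ATF4 targets the largest ratios to mimic NC, those of TRIB3 and SESN2 with miR-130a-3p, were 1.42-fold, under the 1.5-fold used for counts. Other genes of amino acid supply did not have the order, among them PHGDH, SLC3A2 and SLC7A11, and it held in 0 of 16 further amino acid genes. It did hold in 3 of 14 aminoacyl-tRNA synthetases (EPRS1, GARS1 and SARS1), beside the 5.13% of all named genes. It also held in 3 of 17 genes for eIF2, its kinases and its phosphatase (EIF2AK4, EIF2S3 and PPP1CC). Of 33 further ER genes 2 had it, and of 16 heat shock genes 0. CXCL10, an interferon-induced chemokine, had its highest levels on 2 of the 3 arrays where the 5 ATF4 targets were low. It measured 15.42 with miR-146a-5p and 15.54 with let-7e-5p, against 13.03 to 13.59 on the other 4, and its part was not tested.

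A pair of stress-induced regulators, which are also ATF4 targets, had yet another order of the arrays. NUPR1, a small chromatin-associated protein, measured 9.25 with mimic NC, 10.20 with miR-146a-5p, 10.07 with let-7e-5p, 9.43 with let-7d-3p, 8.81 with miR-151a-3p and 9.25 with miR-130a-3p. ATF3, a transcription factor that is also induced by inflammatory signals, measured 12.01 with mimic NC, 12.50 with miR-146a-5p, 12.38 with let-7e-5p, 11.77 with let-7d-3p, 11.93 with miR-151a-3p and 11.14 with miR-130a-3p. These were the widest ranges of the set, 1.39 and 1.36 log2, and ATF3 with miR-130a-3p was 1.83-fold below mimic NC. The arrays of miR-146a-5p and let-7e-5p lay above the other 4 in NUPR1, ATF3, ERN1 and PDIA6, 4 of 35 genes (11.4%) beside 7.04% of all named genes. No minimum gap was required, and PDIA6 met this order narrowly, with 15.38 for miR-146a-5p against 15.36 for miR-130a-3p.

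**Figure D4:**
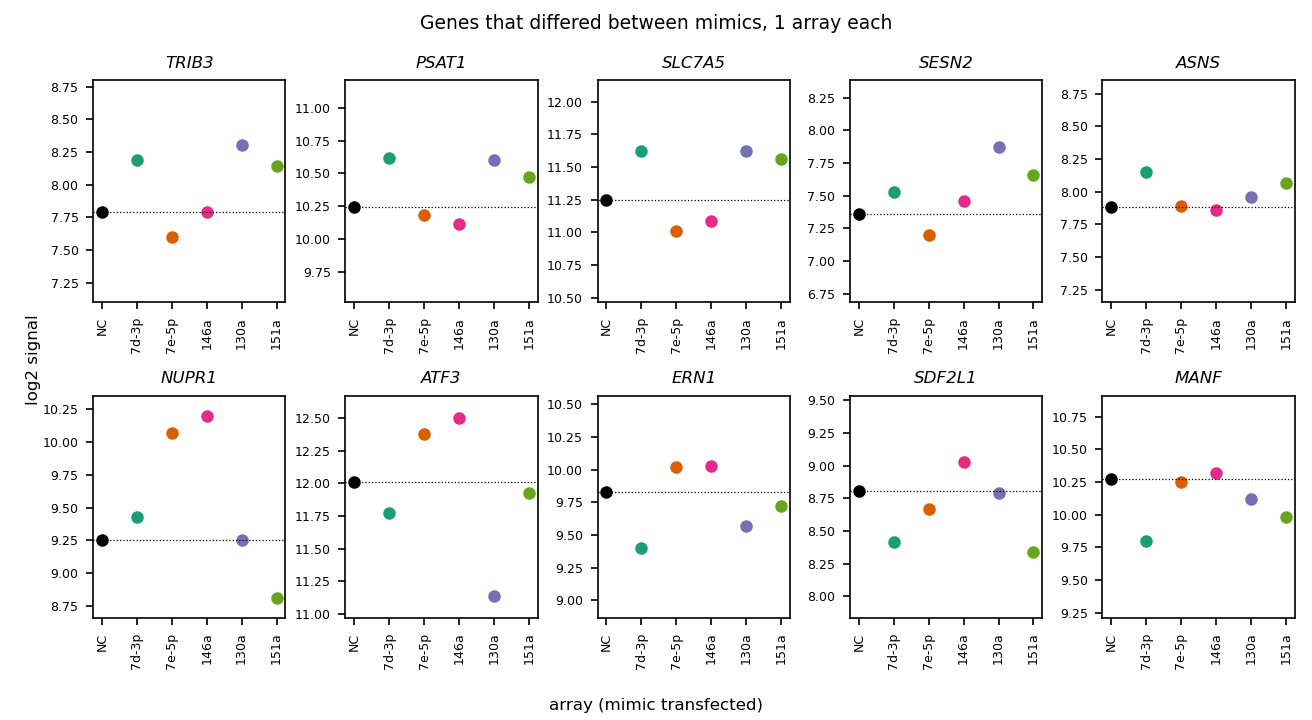
Log2 signal (y axis, 1.7 log2 units in each panel) of 10 genes that differed between mimics, on the 6 arrays (x axis, 1 point each; dotted line, mimic NC). In TRIB3, PSAT1, SLC7A5, SESN2 and ASNS the let-7d-3p, miR-130a-3p and miR-151a-3p arrays lie above the other 3, and in NUPR1, ATF3 and ERN1 the let-7e-5p and miR-146a-5p arrays lie highest.

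The transcription factor CHOP, which links ER stress to cell death, is encoded by DDIT3. It measured 8.31 with mimic NC, 8.59 with miR-146a-5p, 8.73 with let-7e-5p, 8.46 with let-7d-3p, 8.89 with miR-151a-3p and 8.42 with miR-130a-3p. CHAC1, which breaks down glutathione, was near background with 5.14 for mimic NC, 4.94 for miR-146a-5p, 5.38 for let-7e-5p, 5.24 for let-7d-3p, 5.11 for miR-151a-3p and 5.64 for miR-130a-3p. Only the miR-130a-3p array exceeded background for CHAC1, so that it was at least 1.19-fold higher there. DDIT4, an inhibitor of mTORC1, was 7.61 with mimic NC and 7.76 to 8.19 with the mimics, with its highest level for let-7e-5p.

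STC2 was lower than mimic NC with every mimic, and PHGDH was higher with 4 of the 5. STC2 measured 7.28 with mimic NC, 7.15 with miR-146a-5p, 6.68 with let-7e-5p, 6.80 with let-7d-3p, 7.03 with miR-151a-3p and 7.26 with miR-130a-3p, and was thus 1.52-fold lower with let-7e-5p. PHGDH, which starts serine synthesis, spanned 6.32 to 6.89 and was highest with miR-130a-3p. CEBPG, a partner of ATF4 on DNA, spanned 10.72 to 11.31. PPP1R15A, which restores translation by directing a phosphatase to eIF2, spanned 11.67 to 11.97. SLC3A2, the shared subunit of both amino acid transporters above, spanned 0.20 log2, the narrowest range of the ATF4 targets. None of these last 4 reached 1.5-fold against mimic NC with any mimic.

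Against mimic NC, the members at least 1.5-fold higher were VLDLR, SLC7A11 and PDIA4 with let-7d-3p, 8.82% of the 34 above background beside 3.43% of all named genes, and none was as much lower (3.53% of all). With let-7e-5p, NUPR1, VLDLR, SLC7A11, DNAJC3 and PDIA4 were higher (14.7% beside 2.76%) and STC2 lower (2.94% beside 2.32%). With miR-146a-5p, NUPR1, DNAJC3 and PDIA4 were higher (8.82% beside 3.33%) and none was lower (2.51% of all). With miR-130a-3p, DNAJB9, DNAJC3 and PDIA4 were higher (8.57% beside 3.73%) and ATF3 lower (2.86% beside 3.19%). With miR-151a-3p, VLDLR, DNAJB9 and PDIA4 were higher (8.82% beside 4.19%) and none was lower (3.98% of all). Each count rests on 3 to 6 genes, and PDIA4 is in all 5 counts.

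At a lower threshold, a ratio of 5 to 4 in either direction, 8 of 34 members passed with miR-146a-5p (23.5% beside 21.8% of all named genes) and 11 of 34 with let-7e-5p (32.4% beside 21.7%). With let-7d-3p 14 of 34 passed (41.2% beside 24.3%), with miR-151a-3p 10 of 34 (29.4% beside 27.0%) and with miR-130a-3p 12 of 35 (34.3% beside 25.8%). The share of members was thus near that of all genes with miR-146a-5p and miR-151a-3p. At 2-fold only VLDLR passed with let-7d-3p (0.772% of all named genes) and with miR-151a-3p (1.09% of all), and only PDIA4 with miR-130a-3p (0.813% of all). No member passed it with miR-146a-5p (0.630% of all) or let-7e-5p (0.517% of all). At the 3-fold that the study used to list genes no member passed, beside 0.0340% of all named genes with miR-146a-5p, 0.0424% with let-7e-5p, 0.0252% with let-7d-3p, 0.0424% with miR-151a-3p and 0.0169% with miR-130a-3p.

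When ATF4 targets were set against chaperones, both lists had a median ratio above 0 with every mimic. Without their measured transcription factors (ATF3, DDIT3, CEBPG and NUPR1), however, the ATF4 targets had a median of -0.015 with let-7e-5p. The median of the ATF4 targets was 0.10 log2 for miR-146a-5p, 0.085 for let-7e-5p, 0.175 for let-7d-3p, 0.255 for miR-151a-3p and 0.150 for miR-130a-3p. That of the chaperones was 0.155, 0.115, 0.075, 0.105 and 0.150 in the same order. Over all named genes it was 0.01, 0.00, -0.02, 0.03 and 0.01. The difference between the lists was therefore largest with miR-151a-3p, at 0.150 log2 in favour of the ATF4 targets, 0.10 with let-7d-3p and 0.000 with miR-130a-3p, and the ATF4 targets were below the chaperones with let-7e-5p (-0.030) and miR-146a-5p (-0.055). With let-7e-5p the sign of the difference turned to 0.045 when arrays were centred on their median and also without the background filter. None of these differences could be held against replicate error.

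**Figure D5:**
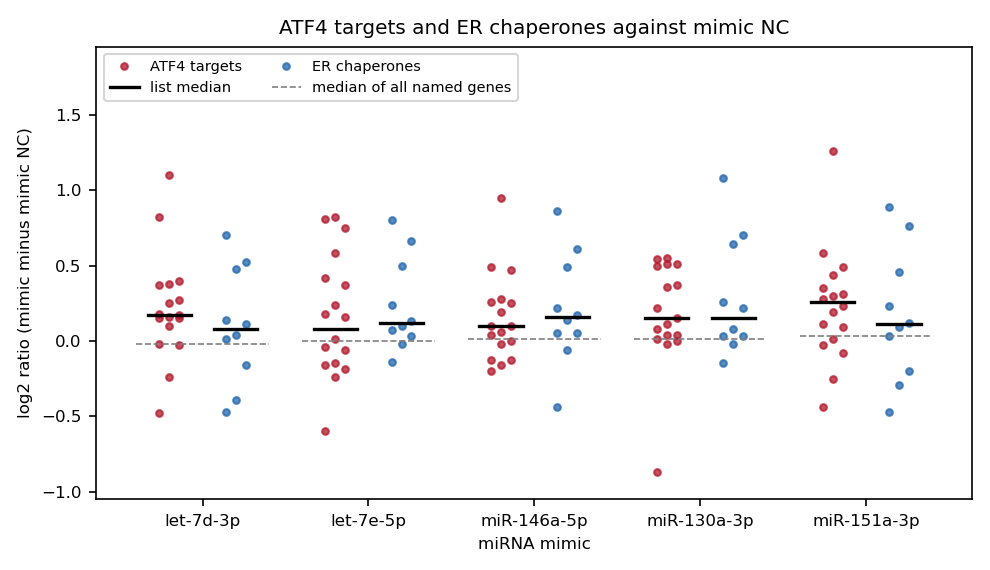
Log2 ratio to mimic NC (y axis) of the 17 measured ATF4 targets (red) and 10 ER chaperones (blue) with each mimic (x axis), 1 point per gene. Black bars are list medians, taken without CHAC1 where it was not above background; the grey dashed line is the median of all named genes, between -0.02 and 0.03. Both lists overlap with every mimic.

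Counted by sign, 22 of 34 members (64.7%) were above mimic NC with let-7d-3p beside 45.9% of all named genes, 23 of 34 (67.6%) with let-7e-5p beside 48.5%, and 24 of 34 (70.6%) with miR-146a-5p beside 50.8%. With miR-130a-3p 28 of 35 (80.0%) were above it beside 50.4%, and with miR-151a-3p 25 of 34 (73.5%) beside 53.8%. The 5 counts share the mimic NC array and are not independent. Measured against the median of the other 4 mimics in place of mimic NC, the median of the ATF4 targets was -0.070 for miR-146a-5p, -0.075 for let-7e-5p, -0.058 for let-7d-3p, 0.148 for miR-151a-3p and -0.020 for miR-130a-3p. That of the chaperones was 0.027, 0.037, -0.147, -0.062 and 0.110. The direction of 6 of the 10 list medians therefore turned with the comparator. A difference from mimic NC that all mimics share cancels with the other 4 as comparator, so these turns do not bear on it. The ATF4 targets with miR-151a-3p lay above both comparators, as did the chaperones with miR-146a-5p, let-7e-5p and miR-130a-3p.

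The promoters of the genes are shown because each branch has known DNA elements. RefSeq start sites (GRCh38.p14) gave 49 windows for 35 of the 37 genes, from 250 bases before to 50 after the start, and NUPR1 and SLC7A11 are named only. Both strands were searched. The ER stress response element (ERSE), CCAAT followed after 9 bases by CCACG, is bound by ATF6 together with NF-Y. It was found in 5 of 13 windows of chaperones, HSP90B1 among them, and in none of 26 windows of ATF4 targets, beside 0.0769% of all 35097 windows. Matched bases are in capitals, and where the match lies on the opposite strand they read as its complement.
HSPA5, chr9:125241385-125241415, minus strand: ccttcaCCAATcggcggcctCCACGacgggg
PDIA6, chr2:10812847-10812877, minus strand: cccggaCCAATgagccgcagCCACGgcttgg
CALR, chr19:12938378-12938408, plus strand: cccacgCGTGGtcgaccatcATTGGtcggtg
CRELD2, chr22:49918548-49918578, plus strand: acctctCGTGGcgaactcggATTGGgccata
XBP1, chr22:28800597-28800627, minus strand: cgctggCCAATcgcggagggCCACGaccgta
The 4 measured chaperones with an ERSE in a window spanned 0.24 to 0.33 log2 over the arrays, and PDIA4, DNAJC3 and DNAJB9, the chaperones that differed most from mimic NC, did not hold these letters in the windows searched.

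A second form, ERSE-II, has ATTGG and CCACG 1 base apart and was found in windows of HYOU1, SDF2L1 and HERPUD1, beside 0.0541% of all windows. The unfolded protein response element TGACGTGG was found in HYOU1, where it overlapped an ERSE-II, and in 0.729% of all windows. The core of the C/EBP-ATF response element, TGATGNAA, which ATF4 binds with a C/EBP partner, was found in 5 of 26 windows of ATF4 targets (19.2%), in 1 of 3 ERAD windows and in none of 13 chaperone windows, beside 3.62% of all windows.
ASNS, chr7:97872463-97872482, minus strand: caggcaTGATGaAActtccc
CEBPG, chr19:33374065-33374084, plus strand: ggcgtcTGATGcAAcctgcc
CHAC1, chr15:40953256-40953275, plus strand: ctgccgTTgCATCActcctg
ATF3, chr1:212565210-212565229, plus strand: tcaggaTGATGgAAggctgt
SLC3A2, chr11:62881730-62881748, plus strand: gactccTTaCATCAgctcc
These genes did not share an order of the arrays, since ATF3 was highest with miR-146a-5p, CEBPG with miR-151a-3p, CHAC1 with miR-130a-3p, and ASNS and SLC3A2 with let-7d-3p. HERPUD1 was the one gene whose window held elements of both branches, and its whole window is given with both matches in capitals.
HERPUD1, chr16:56931892-56932191, plus strand: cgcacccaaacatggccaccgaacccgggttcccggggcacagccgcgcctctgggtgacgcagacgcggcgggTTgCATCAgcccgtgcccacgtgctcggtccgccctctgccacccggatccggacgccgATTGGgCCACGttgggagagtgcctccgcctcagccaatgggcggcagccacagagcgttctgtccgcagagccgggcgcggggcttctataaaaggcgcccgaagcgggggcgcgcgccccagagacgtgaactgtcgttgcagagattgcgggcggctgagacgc
A match is a description of the sequence and not a bound site.

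Other genes of the pathway were taken from lists by function. Of 17 genes for the eIF2 kinases, eIF2, its exchange factor eIF2B and its phosphatase, only EIF2B1 with miR-151a-3p was 1.5-fold from mimic NC. EIF2B1, a subunit of eIF2B, was 1.53-fold higher there, where 4.19% of all named genes were at least 1.5-fold higher. The list medians lay between -0.06 and 0.10. EIF2B1 measured 11.86 with mimic NC, 12.27 with miR-146a-5p, 12.30 with let-7e-5p, 12.12 with let-7d-3p, 12.47 with miR-151a-3p and 12.25 with miR-130a-3p, so that it too was lowest with mimic NC. EIF2AK2, the double-stranded RNA kinase PKR, lay between 14.60 with let-7d-3p and 15.20 with miR-146a-5p.

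Of 16 further amino acid genes 1 or 2 were at least 1.5-fold higher with each mimic, beside 2.76% to 4.19% of all named genes, and 1 was lower with miR-151a-3p, beside 3.98%. SLC36A1, a lysosomal amino acid transporter, led the list each time with 10.77 for mimic NC, 11.82 for miR-146a-5p, 11.77 for let-7e-5p, 11.46 for let-7d-3p, 11.89 for miR-151a-3p and 11.64 for miR-130a-3p. Its level with mimic NC was thus 0.69 log2 below the lowest mimic, beside 0.70 for PDIA4, so such a gap was not particular to chaperones. CTH, which makes cysteine, was the one that was lower, at 5.45 against 6.21. Of 14 aminoacyl-tRNA synthetases only NARS1 differed by 1.5-fold, at 12.82 with let-7d-3p against 13.49 with mimic NC, beside 3.53% of all named genes.

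Among 33 further genes of ER folding, translocation and ERAD, 0 to 3 were at least 1.5-fold higher with a mimic and 0 or 1 lower. The highest count, 3 with miR-130a-3p, stands beside 3.73% of all named genes, and the 1 that was lower with miR-151a-3p beside 3.98%. The list medians lay between -0.02 and 0.07. ERO1B, an oxidase that serves disulphide isomerases, measured 9.53 with mimic NC, 10.10 with miR-146a-5p, 10.32 with let-7e-5p, 9.58 with let-7d-3p, 9.57 with miR-151a-3p and 10.09 with miR-130a-3p. DERL3, an ERAD channel component, was highest with miR-130a-3p at 8.03 against 7.35 with mimic NC. CREB3, a membrane-bound transcription factor, measured 11.70 with mimic NC and less with every mimic, with its lowest level of 10.91 for miR-151a-3p. PDIA4, DNAJC3 and DNAJB9 were the highest genes of the chaperone list, whose own medians were only 0.075 to 0.155 log2. The medians of the lists therefore do not bear on such single genes. MBTPS1, of the wider ER list, measured 11.05 with mimic NC and 11.43 to 11.57 with the mimics. Its level with mimic NC was thus 0.38 log2 below the lowest mimic.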

How the data were processed

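The authors deposited 1 log2 signal for each probe set and array, rounded to at most 2 decimals. Per the labels they were made by RMA in Transcriptome Analysis Console 4.0. RMA settings and genome build: not given in the sources used here. The labels give Trizol for RNA extraction and the methods RNeasy. Symbols came from the platform annotation (17709 of 21448 probe sets carried 1). Genes with several probe sets were averaged, which touched no member. The mimic NC signal was subtracted from that of each mimic, for genes whose brighter array exceeded background. Counts used 1.5-fold, with a ratio of 5 to 4, 2-fold and 3-fold as alternatives. Further alternatives were another comparator, repeated quantile normalization, median centring, lowess (span 0.3), a pseudocount of 32, other filters, means and other list membership. Members and lists were chosen with earlier results of these data known. Values on every array are given for 11 set genes, the 3 highest and 3 lowest members per mimic and the 10 widest ranges. Further genes, such as SEL1L, SESN2 and CXCL10, were picked after their values were seen. Calculations used Python 3.11.15, pandas 2.3.3 and statsmodels 0.14.6 and were tested on simulated data.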

Additional observations from a re-analysis of the deposited data

How the results depend on the processing

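Of 140 recomputed list medians and differences 124 moved by less than 0.1 log2. With the median of the other 4 mimics as comparator, 6 list medians turned below 0, those of the ATF4 targets with let-7d-3p (-0.058), let-7e-5p (-0.075), miR-146a-5p (-0.070) and miR-130a-3p (-0.020), and those of the chaperones with let-7d-3p (-0.147) and miR-151a-3p (-0.062). A difference from mimic NC that all mimics share cancels with that comparator. With that comparator the ATF4 median with miR-151a-3p was 0.148 and the chaperone median with miR-146a-5p 0.027, while the difference with miR-130a-3p moved to -0.130 and the genes past 1.5-fold went from 6 to 2 with let-7e-5p and from 4 to 1 with miR-130a-3p. The mean in place of the median gave 0.237 (let-7e-5p) and 0.287 (miR-130a-3p) for chaperones and a difference of -0.105 with miR-130a-3p. Without the measured transcription factors ATF3, DDIT3, CEBPG and NUPR1 the ATF4 median with miR-130a-3p was 0.360 and the difference 0.210. With let-7e-5p they were -0.015 and -0.130. At a ratio of 5 to 4 in either direction 8 members passed with miR-146a-5p, 11 with let-7e-5p, 14 with let-7d-3p, 10 with miR-151a-3p and 12 with miR-130a-3p, at 2-fold 0, 0, 1, 1 and 1, and at 3-fold 0 with each. Leaving out 1 mimic array at a time gave 11 to 15 members with mimic NC below the rest and 2 to 4 above. A gap of 0.3 log2 left 4 and 0. The cause of these shifts was not tested. Both normalizations, the lowess correction, the pseudocount and the filters moved none of these values by 0.1 log2 or any count by over 1.5 times, but median centring and the absence of a background filter each turned the difference with let-7e-5p from -0.030 to 0.045. No paired analysis was possible because with 1 array per group no samples could be paired. A difference of the size of the spread between cultures cannot be recognised here, and CHAC1 was not above background on 5 arrays.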

Other observations

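Lists of other stress programmes were also set against mimic NC. Of 16 measured heat shock genes none was 1.5-fold higher or lower with any mimic. Beside this stand 2.76% to 4.19% of all named genes higher and 2.32% to 3.98% lower. The list medians lay between -0.03 and 0.08. DNAJB1, a co-chaperone of HSP70, measured 11.52 with mimic NC, 11.77 with miR-146a-5p, 11.84 with let-7e-5p, 12.09 with let-7d-3p, 11.75 with miR-151a-3p and 11.96 with miR-130a-3p, so that it was lowest with mimic NC like several ER co-chaperones.

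A list of 16 measured genes held targets of NRF2, the regulator of the oxidative stress response that also induces SLC7A11, with NRF2 itself and its inhibitor KEAP1. None of them was 1.5-fold higher with any mimic, beside 2.76% to 4.19% of all named genes. With each of miR-130a-3p and miR-151a-3p 1 was lower, beside 3.19% and 3.98% of all. HMOX1, the haem oxygenase, measured 12.53 with mimic NC, 12.60 with miR-146a-5p, 12.65 with let-7e-5p, 12.94 with let-7d-3p, 11.80 with miR-151a-3p and 12.03 with miR-130a-3p. Its highest levels were on the arrays of let-7d-3p and let-7e-5p, as for SLC7A11, but with let-7e-5p it was only 0.12 log2 above mimic NC. The list did not share this. With let-7e-5p 9 of the 16 genes lay above mimic NC (48.5% of all named genes did) and 7 below. Among the 7, NQO1, GCLM and TKT had their lowest levels there. With let-7d-3p 8 lay above (45.9% of all) and 7 below. OSGIN1, a growth inhibitor induced by oxidative stress, was 1.61-fold lower with miR-130a-3p.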
